A study of Mus musculus with 21 samples.

Results

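The hearts compared were 4 wild-type mouse hearts collected on day 7 after myocardial infarction (MI) with FAPI treatment and 3 wild-type hearts collected on day 7 after sham surgery. These 7 libraries, taken by their titles, are part of a series of 21. FAPI is read as an inhibitor of fibroblast activation protein (Fap), the target that the study's title names. All 7 libraries come from tissue labelled border zone, the rim of living muscle beside an infarct, and total RNA was read with a barcoded Smart-seq2 protocol. The 4 hearts labelled wild-type MI without the compound are given beside them, so that a change against sham can be set against the same change without the inhibitor. The fit also holds 4 hearts of genotype FapKO, read as Fap-knockout, collected on day 7 after MI without the compound, and their values are given for 1 transcript pair. The labels do not state the compound, its dose and schedule, the strain, the sex or any vehicle for the sham animals. The comparison asks how far infarcted tissue under the inhibitor still differed from uninjured tissue.

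Loss of heart muscle leaves the surviving border zone stretched and short of oxygen. Its myocytes turn on a fetal gene program, including the natriuretic peptides, and turn down fatty acid oxidation and respiration. Neutrophils and then monocytes enter, macrophages clear debris, and fibroblasts become matrix-producing cells that build a scar. Fap is a membrane-bound serine protease made by activated fibroblasts, and among its reported substrates is the B-type natriuretic peptide, encoded by Nppb.

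Total counts ran from 20827206 to 25943873 in the sham hearts, from 25798766 to 37287355 in the inhibitor hearts and from 18474138 to 25927151 in the untreated infarcted hearts. Reads of mitochondrially encoded genes made up 15.2 to 19.6% of counts in sham, 10.9 to 13.2% in inhibitor and 4.18 to 8.03% in untreated infarcted hearts. The trimmed-mean (TMM) scaling factors, which correct for such a shift in composition, were 0.626 to 0.697, 0.929 to 1.14 and 1.24 to 1.55. Scaling by total counts instead moved the median over all genes from 0.09 to 0.77 on the log2 scale, so each direction below is relative to the TMM reference. All 23 cardiomyocyte markers were detected, and their summed level was 135200 to 157100 CPM (counts per 1e6 of the TMM-scaled library size) in sham and 56620 to 99330 in inhibitor hearts. The labels do not say that each library is its own animal, so the p-values may reflect technical spread alone. In bulk tissue, fewer cells of a type and less RNA per cell cannot be told apart.

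Border zone tissue under the inhibitor differed from sham across most of the measured transcriptome. Of 17064 genes tested with edgeR's quasi-likelihood test, 9517 (55.8%) passed an adjusted p of 0.05, and the groups did not overlap for 9815 (57.5%). The called genes divided into 4987 (29.2%) higher and 4530 (26.5%) lower. Among them, 2490 were higher and 1850 lower by at least 1 on the log2 scale. With total-count scaling the split was 10769 higher and 1632 lower. The untreated infarcted hearts, set against the same 3 sham hearts, gave 11783 called genes (69.1%), 6331 higher (37.1%) and 5452 lower (32.0%), of which 3787 and 3108 changed by at least 1. Between the inhibitor and untreated infarcted hearts, tested directly, 5081 genes differed (29.8%): 3053 were higher with the inhibitor (17.9%) and 2028 lower (11.9%). The last count fell to 1342 without inhibitor replicate 2 and to 1095 without inhibitor replicate 4, and with total-count scaling it was 8485, with 1448 higher. Both comparisons against sham share the sham hearts, so their values are given side by side and the direct test carries the difference.

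**Figure D1:**
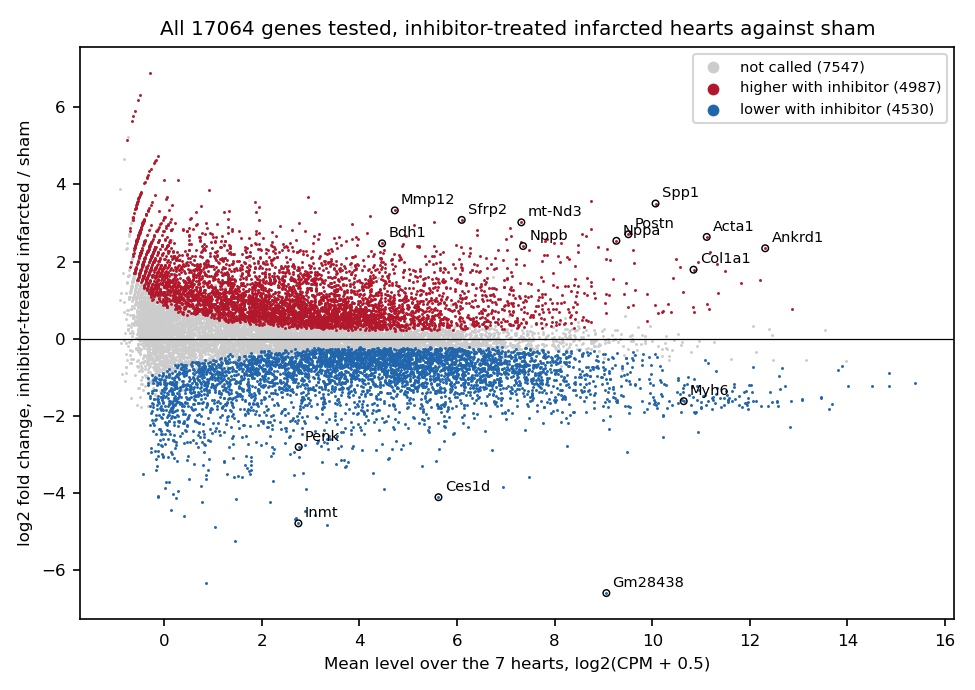
Each point is 1 of 17064 genes, with its mean level over the 7 hearts as log2(CPM + 0.5) on the x axis and its log2 fold change of inhibitor-treated infarcted over sham hearts on the y axis. Red genes were higher (4987), blue genes lower (4530) and grey genes not called; named points include Spp1 near 3.50 and Gm28438 near -6.59.

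The natriuretic peptide genes Nppa and Nppb were raised, and most processing and receptor genes of the peptides did not pass the test. Nppa, which encodes the atrial peptide, measured 135, 206 and 151 CPM in sham and 1149, 1294, 533 and 833 in inhibitor hearts, and 282 to 778 in untreated infarcted hearts. The groups with and without injury did not overlap, and the log2 fold change against sham was 2.54 (SE 0.339, adjusted p = 1.33e-05). Nppb, which encodes the B-type peptide, measured 31, 47.6 and 63.2 CPM in sham and 220.0, 144, 310.1 and 325 in inhibitor hearts, a log2 fold change of 2.40 (adjusted p = 0.00185, SE 0.564). Untreated infarcted hearts measured 49.8, 25.2, 147 and 71.9 CPM and overlapped the sham range, at a log2 fold change of 0.63 (adjusted p = 0.295, SE 0.529). The direct difference in Nppb between inhibitor and untreated infarcted hearts was 1.77 (SE 0.491, adjusted p = 0.0129). The median of 23 cardiomyocyte markers in the same test was 1.64. Nppc, which encodes the C-type peptide, had 0 to 2 counts in the sham and 3 to 16 in the inhibitor hearts. Its log2 fold change of 2.00 (SE 1.12, adjusted p = 0.141) did not pass, but did with total-count scaling (adjusted p = 0.0274) and with a replicate block (adjusted p = 0.0489).

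Fap itself measured 2.71, 3.40 and 3.86 CPM in sham and 7.75, 8.4, 10.4 and 6.47 in inhibitor hearts, so its transcript was higher in every inhibitor heart (log2 fold change 1.32, SE 0.181, adjusted p = 1.77e-05). In untreated infarcted hearts it measured 9.40 to 13.2 CPM. Mme, which encodes neprilysin, a protease that degrades natriuretic peptides, fell from 2.05 ± 0.351 CPM (SD, n = 3) to 0.580 ± 0.198 (SD, n = 4), a log2 change of -1.82 (SE 0.280, adjusted p = 5.13e-05). The receptor genes Npr1, Npr2 and Npr3 had log2 fold changes of -0.18, 0.10 and 0.41 (adjusted p = 0.505, 0.46 and 0.284), and the proprotein convertase gene Furin had 0.11 (adjusted p = 0.443). The processing protease gene Corin was called lower. Its call was lost when any sham heart, or inhibitor replicate 1, 2 or 3, was left out (-0.85 to -0.69, adjusted p 0.0599 to 0.0941). With total-count scaling Corin had -0.17 (adjusted p = 0.562). Soluble guanylate cyclase makes cyclic GMP in response to nitric oxide, not to the peptides. Its subunit genes Gucy1a1 and Gucy1b1 were higher, by 1.62 (SE 0.235) and 1.13 (SE 0.137), while Gucy1a2, another subunit gene, did not pass. Prkg2, a cyclic GMP-dependent kinase gene, rose by 2.02 (SE 0.301), Pde5a and Pde1a, which encode phosphodiesterases, rose by 0.98 and 1.47, and Pde2a fell by 1.49. Of 24 genes of the peptide and cyclic GMP pathway, 9 were higher and 5 lower, against 29.2% and 26.5% of all genes, and their median was 0.19 on the log2 scale against 0.09 for all genes. The lower count became 3 without sham replicate 1 or without inhibitor replicate 2. With total-count scaling the counts were 16 higher and 2 lower.

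Genes of the stretched and fetal-type myocyte were raised under the inhibitor, several of them far above untreated infarcted tissue. Of 24 such genes 18 were higher than sham and none lower, at a median log2 fold change of 1.49, whereas untreated infarcted hearts gave 10 higher, 4 lower (37.1% and 32.0% of all genes) and a median of 0.74. Those 4 lower genes became 2 without MI replicate 2 or sham replicate 1 or 2. Tested directly, 14 of the 24 were higher with the inhibitor than without it and 1 lower, against 17.9% and 11.9% of all genes. The list's median in that test was 0.93 on the log2 scale. All 23 cardiomyocyte markers were also higher there, at a median of 1.64. Whether the stretch genes rose beyond other myocyte genes was not tested. The contrast with untreated MI depended on the scaling: with total counts, MI against sham gave 19 higher and none lower, and the direct test 11 higher and 6 lower. Acta1, the skeletal alpha-actin gene that is re-expressed in stressed heart muscle, measured 431, 687 and 553 CPM in sham and 3738, 4595, 1852 and 3678 in inhibitor hearts. Untreated infarcted hearts measured 269, 802, 665 and 325 CPM, overlapping sham, while every inhibitor heart lay above both groups. Its log2 fold change was 2.64 against sham (SE 0.417, adjusted p = 6.32e-05) and 2.75 against untreated MI (SE 0.374, adjusted p = 0.000141). Ankrd1, which encodes a titin-binding mechanical stress sensor, rose from 1529 ± 329 CPM (SD, n = 3) to 7765 ± 1810 (SD, n = 4), against 2515 ± 964 (SD, n = 4) in untreated infarcted hearts. Xirp2, a gene of the intercalated disc, measured 76.9, 104 and 127 CPM in sham and 407, 645, 484 and 663 with the inhibitor, and Fhl1, a sarcomeric stretch sensor gene, measured 49.0, 52.6 and 75.1 against 221, 303, 351 and 545. Neither gene overlapped between the 2 groups, and the log2 fold changes were 2.42 (SE 0.428) and 2.59 (SE 0.364).

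Myh7, the slow fetal myosin heavy chain gene, was higher than sham under the inhibitor by 1.43 (SE 0.418, adjusted p = 0.00835). In untreated infarcted hearts it was lower than sham by 0.97 (SE 0.403, adjusted p = 0.042), and the direct difference was 2.40 (SE 0.389, adjusted p = 0.000393). Ankrd2 rose by 2.93, Gdf15, which encodes a stress-induced cytokine, by 2.75, and the matricellular genes Ccn2 and Ccn1 by 2.14 and 1.45. The list's other members were the atrial light chain genes Myl7 (-0.86) and Myl4 (0.23), Tnni1 (0.27), Mt1 (0.07) and the small heat shock genes Cryab (0.09) and Hspb7 (0.31), none of which passed the test.

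The promoters of 3 raised genes are shown because these genes moved together and carry sequence elements known from muscle promoters. Each run is the 250 bases before the annotated start (RefSeq, GRCm38.p6), 5′ to 3′ along the gene, and capitals mark matches on either strand to the M-CAT element (CATTCC, the site of TEAD factors) or to the CArG box of serum response factor, which do not overlap here.
Acta1 (chr8:123894776-123895025, minus strand): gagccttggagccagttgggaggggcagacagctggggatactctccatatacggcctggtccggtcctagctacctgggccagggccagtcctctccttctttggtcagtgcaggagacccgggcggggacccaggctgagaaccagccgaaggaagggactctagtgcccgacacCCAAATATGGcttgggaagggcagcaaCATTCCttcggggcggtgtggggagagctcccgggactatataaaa
Ankrd1 (chr19:36119845-36120094, minus strand): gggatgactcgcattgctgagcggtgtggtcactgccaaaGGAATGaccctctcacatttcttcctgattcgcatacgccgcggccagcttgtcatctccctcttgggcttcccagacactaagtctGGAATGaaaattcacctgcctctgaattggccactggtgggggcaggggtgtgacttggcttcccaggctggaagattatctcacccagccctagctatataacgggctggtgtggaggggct
Nppb (chr4:147985650-147985899, plus strand): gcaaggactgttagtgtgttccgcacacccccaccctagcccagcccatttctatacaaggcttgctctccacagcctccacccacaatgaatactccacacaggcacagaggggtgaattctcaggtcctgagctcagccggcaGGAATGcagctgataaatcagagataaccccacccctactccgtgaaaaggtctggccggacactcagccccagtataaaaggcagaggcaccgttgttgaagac
Acta1 held 1 CArG box from base -73 to -64 and 1 M-CAT element from -46 to -41, Ankrd1 held M-CAT elements at -210 to -205 and -123 to -118, and Nppb held 1 at -105 to -100. Of 21 stretch and fetal genes with a promoter in the table, 10 (47.6%) held an M-CAT element and 3 (14.3%) a CArG box within the 300-base window that runs 50 bases past the start. Over all 27025 genes of the table the shares were 16.6% and 1.81%, and over all 32851 promoter windows 14.7% and 1.63%. Some other lists had similar shares. The M-CAT element was found for 5 of 11 smooth muscle and pericyte markers (45.5%) and 5 of 12 resting fibroblast markers (41.7%). The CArG box was found for 4 of 21 cardiomyocyte markers (19%), from a list with 15 of 23 genes lower than sham and none higher. The elements were thus not particular to the raised list. A match is a string of letters, and binding was not measured.

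**Figure D2:**
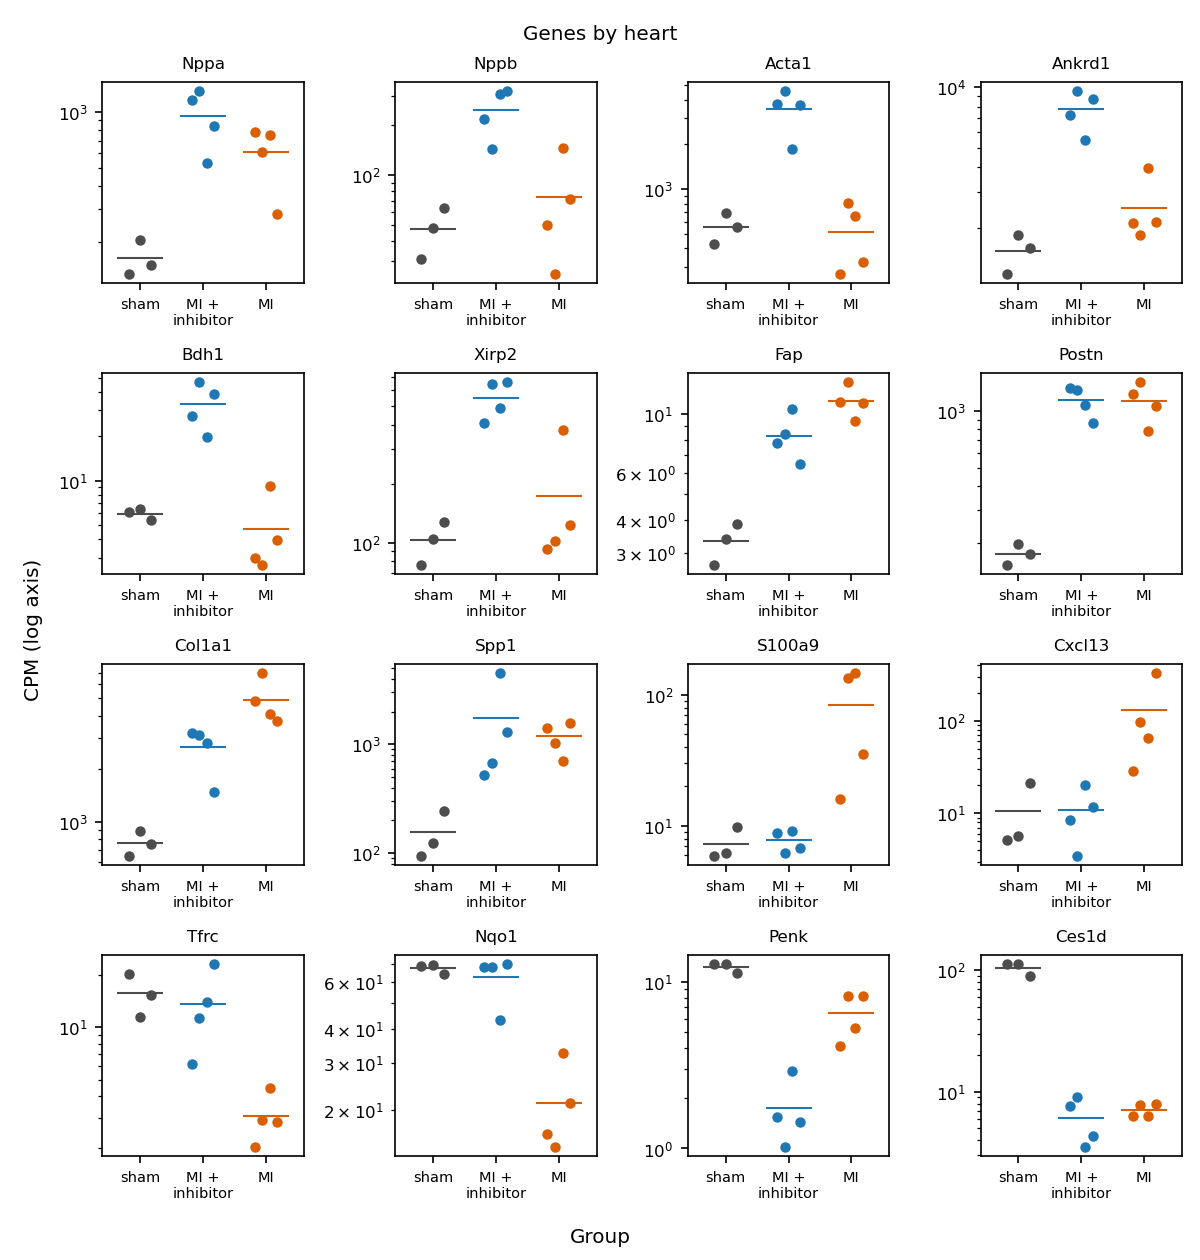
Each panel plots 1 gene with its CPM on a log axis for the 3 sham, 4 inhibitor-treated infarcted and 4 untreated infarcted hearts; points are hearts and horizontal lines group means. Acta1, Ankrd1, Bdh1 and Xirp2 stand above both other groups with the inhibitor, Postn and Ces1d sit at the untreated infarcted level, and S100a9, Cxcl13, Tfrc and Nqo1 sit near sham.

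The contractile genes were lower than sham, though less than without the inhibitor. Of 23 cardiomyocyte markers 15 were lower and none higher, at a median of -1.01, and 8 were lower with total-count scaling. Without the inhibitor all 23 were lower, with a median of -2.96. All 23 were higher in inhibitor than in untreated infarcted hearts (median 1.64), against 17.9% of all genes. Myh6, the fast adult myosin heavy chain gene, measured 2530, 2544 and 2732 CPM in sham, 698, 1053, 526 and 1116 in inhibitor hearts and 134 to 362 in untreated infarcted hearts. The 3 groups did not overlap, and the log2 change against sham was -1.62 (SE 0.308, adjusted p = 0.000336). Tnni3, the adult cardiac troponin I gene, fell by 1.81 (SE 0.318) and Ckm, the muscle creatine kinase gene, by 1.90 (SE 0.236). Sarcomere scaffold genes did not pass the test: Ttn (titin) had -0.26, Mybpc3 -0.13, Myom1 -0.17 and Actn2 -0.51.

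Calcium handling and channel genes followed, with 20 of 28 lower, 1 higher and a median of -1.18, against 25 lower and a median of -2.17 without the inhibitor. Pln, which encodes phospholamban, the brake on the calcium pump, measured 991, 954 and 772 CPM in sham and 189, 241, 153 and 260 in inhibitor hearts. It fell by 2.10 (SE 0.205, adjusted p = 6.68e-07), and Atp2a2, the pump gene itself, fell by 1.61 (SE 0.252, adjusted p = 5.59e-05). The transient outward potassium channel genes Kcnd2 and Kcnip2 fell by 1.93 and 2.31, and Kcnj2, the inward rectifier gene, by 1.63. The ryanodine receptor gene Ryr2 had -0.55 (adjusted p = 0.137). Gja5, a connexin gene of the conduction system, was the 1 member higher, by 0.64 (adjusted p = 0.029), and no longer passed when any of the sham hearts, or inhibitor replicate 1 or 2, was left out (adjusted p 0.051 to 0.0898), or with limma-voom (adjusted p = 0.0618). Among adrenergic and muscarinic genes 9 of 18 were lower and 3 higher, against 26.5% and 29.2% of all genes. The split turned to 5 lower and 7 higher with total-count scaling. Adra1a fell by 2.25 and Adrb1 by 1.28, while Grk5, a receptor kinase gene, rose by 1.55.

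Genes of respiration were lower throughout. All 46 nuclear genes of oxidative phosphorylation were lower than sham, at a median of -1.59, and 45 were lower with total-count scaling. The same 46 genes were lower without the inhibitor, with a median of -2.95. All 46 were higher in inhibitor than in untreated infarcted hearts (median 1.37), against 17.9% of all genes. Cox7a1, a muscle-type cytochrome oxidase subunit gene, measured 14516, 14862 and 10369 CPM in sham and 2431, 3362, 1699 and 3419 in inhibitor hearts, a log2 change of -2.28 (SE 0.282, adjusted p = 6.29e-06). Ndufs1, a complex I subunit gene, fell by 1.59 (SE 0.194) and Atp5b, the ATP synthase beta subunit gene, by 1.34 (SE 0.250). Of 9 mitochondrially encoded genes 8 were lower, among them mt-Cytb by 1.16 and mt-Co1 by 0.96. The exception, mt-Nd3, was higher and is taken up with its nuclear copy.

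Fatty acid oxidation was lower in 26 of 27 genes (median -1.70), against a median of -2.82 without the inhibitor. Acadm, the medium-chain acyl-CoA dehydrogenase gene, measured 2285, 2266 and 1665 CPM in sham and 423, 571, 390.1 and 704 in inhibitor hearts (log2 change -1.99, SE 0.256, adjusted p = 9.39e-06). Cpt1a, the liver-type carnitine palmitoyltransferase gene, was the 1 member higher, from 8.34 ± 1.36 CPM (SD, n = 3) to 13 ± 1.63 (SD, n = 4), and inhibitor replicate 4 lay below the other 3 at 10.6 CPM. The regulators of this program were lower as well: Ppargc1a, a coactivator of mitochondrial genes, by 1.79 (SE 0.243), Ppara, a fatty acid receptor gene, by 1.42 (SE 0.217) and Esrra, the estrogen-related receptor gene, by 1.26, with 12 of 17 regulators lower and none higher. With total-count scaling 7 regulators were lower and 3 higher. The estrogen-related receptor element, searched by its consensus on both strands, was found in the 300-base promoter window of 2 of 33 oxidative phosphorylation genes (6.06%). It was found for 0 of 23 fatty acid oxidation genes and 0.466% of all genes. The first share rests on 2 genes, and 1 of 19 macrophage markers (5.26%) held the element too, so no link to the lower genes is drawn. Of 29 genes of the tricarboxylic acid cycle and pyruvate dehydrogenase 26 were lower (median -1.49), and the 3 that did not pass were the kinase genes Pdk1 (-0.01) and Pdk4 (-0.12) and the phosphatase subunit gene Pdpr (-0.16).

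Glucose handling split by isoform. Slc2a4, the insulin-responsive glucose transporter gene, fell by 1.59 (SE 0.240) while Slc2a1, the ubiquitous transporter gene, rose by 0.88 (SE 0.176). The muscle enolase and phosphofructokinase genes Eno3 and Pfkm fell by 1.90 and 1.72, while Eno1 and Pfkp rose by 0.47 and 1.05, and Aldoc and the lactate exporter gene Slc16a3 rose by 2.13 and 1.91. In all, 8 of 28 were higher and 11 lower, against 29.2% and 26.5% of all genes, so the higher share was no larger than over all genes. With total-count scaling 15 were higher and 7 lower. Bdh1, which encodes the mitochondrial enzyme that interconverts the 2 main ketone bodies, measured 6.16, 6.40 and 5.38 CPM in sham and 27.5, 46.9, 19.7 and 38.9 in inhibitor hearts. Untreated infarcted hearts measured 2.68 to 9.24 CPM, so every inhibitor heart lay above both groups. The log2 fold change was 2.47 against sham (SE 0.386, adjusted p = 5.69e-05) and 2.82 against untreated MI (SE 0.340, adjusted p = 8.64e-05). The next enzyme of ketone use, encoded by Oxct1, went the other way, by -0.95 (SE 0.20, adjusted p = 0.000771). Nmrk2, a muscle kinase gene of NAD synthesis, measured 24.8, 31.7 and 121 CPM in sham and 179.6, 268, 816 and 1542 in inhibitor hearts (log2 fold change 3.57, SE 0.935, adjusted p = 0.00404).

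**Figure D3:**
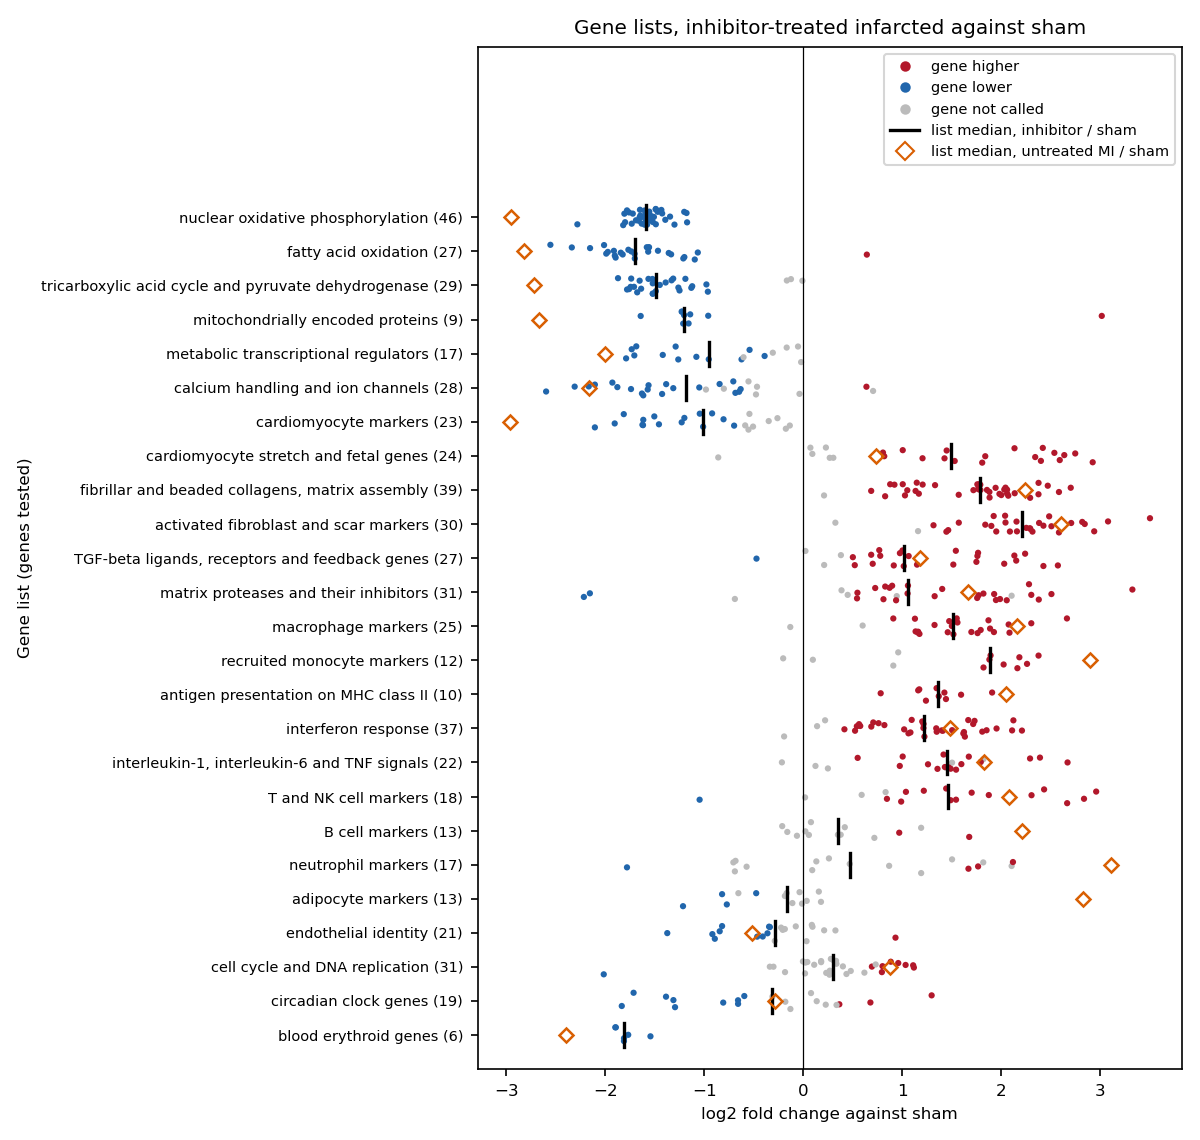
Each row is a gene list with the number of genes tested in brackets; points are genes at their log2 fold change of inhibitor-treated infarcted over sham hearts, red where higher, blue where lower and grey where not called. Black bars are the list medians and open diamonds the medians for untreated infarcted over sham hearts, which lie farther from 0 for oxidative phosphorylation (-2.95 against -1.59) and neutrophil markers (3.11 against 0.47).

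Scar-building genes stayed high. Among 39 collagen and matrix assembly genes 38 were higher than sham and none lower (median 1.79), against 39 higher and a median of 2.24 without the inhibitor. In the direct test 15 of the 39 were lower with the inhibitor than without it and none higher, against 11.9% and 17.9% of all genes. With total-count scaling 36 were lower, in a setting where 8485 of all 17064 genes were lower. Col1a1, the main fibrillar collagen gene, measured 647, 896 and 751 CPM in sham, 3208, 3103, 2789 and 1478 in inhibitor hearts and 3718 to 6989 in untreated infarcted hearts. Inhibitor replicate 4 was the lowest of its group and still above all sham hearts, and the log2 fold change was 1.79 (SE 0.276, adjusted p = 4.99e-05). Against untreated MI it was -0.89 (SE 0.243, adjusted p = 0.0117). Col3a1 rose by 2.06 (SE 0.168), Fn1, the fibronectin gene, by 2.38 (SE 0.226) and Lox, which encodes the collagen cross-linking enzyme, by 2.58 (SE 0.181). Fbln1 was the 1 member that did not pass, at 0.21.

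Markers of activated fibroblasts were higher in 28 of 30 genes (median 2.21), against 29 of 30 and a median of 2.61 without the inhibitor. Tested directly, 5 of the 30 were lower with the inhibitor than without it and 2 higher, against 11.9% and 17.9% of all genes. The lower count ran from 1 without inhibitor replicate 4 to 10 without MI replicate 3, and was 2 without MI replicate 1 or 2. It was 20 with total-count scaling, where 8485 of all 17064 genes were lower. Postn, the periostin gene and a standard marker of activated cardiac fibroblasts, measured 152, 198 and 175 CPM in sham, 1331, 1299, 1080.1 and 867 in inhibitor hearts and 785 to 1436 in untreated infarcted hearts. Inhibitor and untreated infarcted hearts overlapped, with a direct difference of 0.02 (SE 0.175, adjusted p = 0.953), and the log2 fold change against sham was 2.71 (SE 0.209, adjusted p = 7.55e-08). Cthrc1 rose by 2.84 (SE 0.293), Comp by 2.29 (SE 0.213) and Sfrp2, a secreted Wnt antagonist gene, by 3.08 (SE 0.358). Acta2, the smooth muscle actin gene used as a myofibroblast marker, had 0.33 (adjusted p = 0.312). Its inhibitor replicate 4 measured 201.6 CPM against 447.2 to 466.4 in the other 3, and without that heart the log2 fold change was 0.54 (adjusted p = 0.0423). Among 8 Wnt antagonists 5 were higher, and Wif1 was lower by 1.48 (adjusted p = 0.0091), or 1.29 (adjusted p = 0.0502) without sham replicate 2 and 0.83 (adjusted p = 0.0959) with total-count scaling. Markers of resting fibroblasts were mixed, with 7 of 16 higher and 4 lower than sham, against 29.2% and 26.5% of all genes. Their median was 0.21, and 13 were higher and 2 lower with total-count scaling. Tcf21 and Mgp rose by 1.5 and 1.85 while Gsn and Clec3b fell by 1.93 and 1.38.

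The transforming growth factor beta pathway, the main inducer of fibroblast activation, was higher in 23 of 27 genes (median 1.02, against 1.18 without the inhibitor). Among ligands Tgfb2 and Tgfb3 rose by 1.54 (SE 0.149) and 1.76 (SE 0.166) and Tgfb1 by 0.52 (SE 0.193, adjusted p = 0.0297). The receptor genes Tgfbr1 and Tgfbr2 rose by 1.52 and 1.15, while the co-receptor gene Tgfbr3 fell by 0.47, a direction that turned to 0.20 with total-count scaling. Latent-binding and feedback genes rose as well: Ltbp2 by 2.43 (SE 0.145), Fst by 2.57 and Smad7 by 1.02. Of 31 matrix proteases and inhibitors 24 were higher and 2 lower. The inhibitor gene Timp1 rose from 43.0 ± 8.81 CPM (SD, n = 3) to 245 ± 30.4 (SD, n = 4), Timp4, the inhibitor typical of healthy heart, fell by 2.21, and the collagenase gene Mmp14 rose by 1.95 (SE 0.254). Mmp12, a macrophage elastase gene, measured 2.96, 2.94 and 6.82 CPM in sham and 6.96, 11.3, 114 and 36.1 in inhibitor hearts, so 1 inhibitor heart carried most of its mean. Chaperones of the endoplasmic reticulum, where secreted matrix is folded, were higher in 17 of 20 genes (median 0.73), with Serpinh1, the collagen chaperone gene, up by 1.21.

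Macrophage genes were high with the inhibitor, below the level without it. Of 25 markers 23 were higher than sham and none lower (median 1.52), against 24 and a median of 2.16 without the inhibitor. The summed level was 3204 to 3546 CPM in sham, 8434 to 14450 in inhibitor and 12770 to 19090 in untreated infarcted hearts. Tested directly, 14 of the 25 were lower with the inhibitor than without it, against 11.9% of all genes, and 22 when inhibitor replicate 3 was left out. With total-count scaling all 25 were lower, as were 8485 of all 17064 genes. Adgre1, which encodes the F4/80 antigen, measured 11.3, 10.5 and 11.8 CPM in sham and 37, 30.4, 47.1 and 30.9 in inhibitor hearts (log2 fold change 1.70, SE 0.169, adjusted p = 7.95e-07). Cd163 and Mrc1, markers of resident macrophages, had -0.13 and 0.60 and did not pass. Of 12 markers of recruited monocytes 8 were higher, among them Ccr2, the monocyte chemokine receptor gene, by 2.26 (SE 0.270) and Ly6c2 by 1.89 (SE 0.414). Of 12 resident macrophage markers 3 were higher and 3 lower, near the 29.2% and 26.5% of all genes, 5 higher without inhibitor replicate 2, and 5 higher and 1 lower with total-count scaling. Lyve1 had -0.44 (adjusted p = 0.32), Timd4, which encodes a receptor for dying cells on resident macrophages, fell by 1.49 (adjusted p = 0.0318), and Ccl24 fell by 2.52. The Timd4 call was lost when any heart other than sham replicate 2 or inhibitor replicate 4 was left out (adjusted p 0.0606 to 0.101) and with total-count scaling (adjusted p = 0.172).

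Genes of lipid-laden scar macrophages were higher in 13 of 16 (median 1.05). Spp1, the osteopontin gene, measured 94.6, 124 and 247 CPM in sham and 523, 672, 4558 and 1287 in inhibitor hearts, and Gpnmb measured 11, 14.8 and 13.5 against 30.5, 37.4, 160.4 and 50.2. The same inhibitor heart, replicate 3, was highest for both genes and for Mmp12, and no sham heart reached the inhibitor range. The log2 fold changes were 3.50 (SE 0.659, adjusted p = 0.000301) and 2.41 (SE 0.630, adjusted p = 0.004). Trem2, the lipid receptor gene of these cells, rose by 1.93 (SE 0.300) and Lgals3 by 2.67.

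The interferon response was raised in both infarcted groups. Of 37 genes 34 were higher than sham and none lower (median 1.22), against 35 and a median of 1.48 without the inhibitor, and 37 were higher with total-count scaling. Zbp1, a sensor gene of left-handed nucleic acid, measured 7.39, 6.92 and 6.96 CPM in sham and 33.3, 32.8, 35.2 and 30.2 in inhibitor hearts, a narrow spread on both sides (log2 fold change 2.21, SE 0.113, adjusted p = 2.82e-09). Irf7, which encodes the transcription factor that amplifies type I interferon, measured 28.6, 27.0 and 25.5 CPM in sham and 105, 112, 90.8 and 82.8 in inhibitor hearts (1.85, SE 0.120). Ifit1 and Ifit3, RNA-binding antiviral genes, rose by 1.81 (SE 0.154) and 1.73 (SE 0.152), and Isg15, a ubiquitin-like modifier gene, by 1.72 (SE 0.165). The members that did not pass were Ifi27 (-0.19), Iigp1 (0.14) and Irf1 (0.22). Tested directly, 10 of the 37 were lower with the inhibitor than without it (6 without inhibitor replicate 4), against 11.9% of all genes. With total-count scaling 34 were lower, as were 8485 of all 17064 genes.

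Some of these promoters are shown because they hold the interferon-stimulated response element, searched on both strands as 2 copies of GAAA with 2 bases of any kind (NN) between them, the site bound by interferon regulatory factors. Capitals mark the matches, which appear as the reverse complement in Ifit1 and Ifit3 and as overlapping copies in Isg15.
Ifit1 (chr19:34640639-34640888, plus strand): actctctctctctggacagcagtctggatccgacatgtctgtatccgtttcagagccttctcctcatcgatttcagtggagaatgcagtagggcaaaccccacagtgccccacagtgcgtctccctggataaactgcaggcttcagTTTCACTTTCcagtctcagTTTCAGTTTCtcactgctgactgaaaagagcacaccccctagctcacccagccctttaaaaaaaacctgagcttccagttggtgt
Ifit3 (chr19:34583279-34583528, plus strand): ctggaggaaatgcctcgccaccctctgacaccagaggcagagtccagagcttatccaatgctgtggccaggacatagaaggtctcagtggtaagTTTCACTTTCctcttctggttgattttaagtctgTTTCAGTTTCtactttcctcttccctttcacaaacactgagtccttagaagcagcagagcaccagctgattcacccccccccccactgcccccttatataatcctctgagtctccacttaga
Isg15 (chr4:156200819-156201068, minus strand): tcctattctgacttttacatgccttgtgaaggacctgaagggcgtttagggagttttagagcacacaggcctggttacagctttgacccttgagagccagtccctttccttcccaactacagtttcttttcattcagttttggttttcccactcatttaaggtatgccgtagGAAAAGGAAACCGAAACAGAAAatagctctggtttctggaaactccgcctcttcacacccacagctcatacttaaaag
Ifit1 held matches from base -104 to -95 and from -85 to -76, Ifit3 from -156 to -147 and -122 to -113, and Isg15 had 3 that overlap between -78 and -57. At least 1 match in the 300-base window was found for 16 of the 27 interferon response genes with a listed promoter (59.3%), against 3.99% of 27025 genes and 3.44% of 32851 promoter windows.

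Antigen presentation and cytokine genes were raised as well, though many were below the level without the inhibitor. Counts against sham are read here against 29.2% of all genes higher and 26.5% lower. All 10 genes of MHC class II were higher than sham (median 1.36), with H2-Aa at 91.4, 96.3 and 105 CPM in sham and 269, 257, 341 and 313 in inhibitor hearts, and Cd74, the invariant chain gene, up by 1.16 (SE 0.180). Class I genes were higher in 12 of 16, with B2m, the shared light chain gene, up by 1.17. In the interleukin-1, interleukin-6 and TNF list 16 of 22 genes were higher and none lower. Il6 rose from 0.351 ± 0.273 CPM (SD, n = 3) to 1.84 ± 0.300 (SD, n = 4), and Il1rn, which encodes the interleukin-1 receptor antagonist, rose by 2.67; Tnf and Il1b had 0.12 and 1.82 and did not pass. Of 31 chemokine genes 19 were higher and 4 lower, with Ccl2 up by 1.10 (SE 0.227), Ccl5 by 2.00 (SE 0.190) and the eosinophil chemokine gene Ccl11 down by 1.97. T and natural killer cell markers were higher in 14 of 18 (median 1.47), all at low levels. Cd8a, the co-receptor gene of cytotoxic T cells, measured 0.0616, 0.131 and 0.482 CPM in sham and 1.55, 1.28, 2.24 and 1.27 in inhibitor hearts (2.84, SE 0.497, adjusted p = 0.000162). Their summed level was 22.6 to 25.75 CPM in sham and 46.14 to 75.37 in inhibitor hearts. Against sham, the medians without the inhibitor were 2.05 for class II, 1.24 for class I, 2.17 for chemokine and 2.08 for T and natural killer cell genes. In the direct test 9 of 10, 8 of 16, 20 of 31 and 9 of 18 of these were lower with the inhibitor, against 11.9% of all genes. Without inhibitor replicate 4 the class II count was 5 and the chemokine count 11.

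Some responses of untreated infarcted tissue were near the sham level with the inhibitor. Neutrophil markers were higher than sham in 3 of 17 genes (median 0.47), where 29.2% of all genes were higher. Without the inhibitor 16 of 17 were higher, with a median of 3.11, where 37.1% of all genes were higher. In the direct test 14 were lower, against 11.9% of all genes. S100a9, an abundant neutrophil cytosolic gene, measured 5.91, 6.27 and 9.79 CPM in sham, 8.89, 6.21, 9.18 and 6.84 in inhibitor hearts and 16.1, 134, 148 and 35.2 in untreated infarcted hearts. Sham and inhibitor hearts overlapped (log2 fold change 0.09, SE 0.552, adjusted p = 0.899), and the direct difference from untreated MI was -3.42 (SE 0.505, adjusted p = 0.000225). The 3 that passed against sham were Csf3r, the granulocyte colony-stimulating factor receptor gene, at 1.77, Lcn2 at 2.12 and Retnlg at 1.67; Retnlg had an adjusted p of 0.0104, or 0.0501 without sham replicate 2 and 0.0669 with limma-voom. G0s2, also a gene of fat and muscle, was lower by 1.78. The summed level of the list, G0s2 included, was 365.8 to 540.6 CPM in sham, 178.5 to 192.6 in inhibitor and 251.1 to 988.6 in untreated infarcted hearts. The count of neutrophil genes higher than sham became 6 with total-count scaling, without a filter on low counts, or with only the 2 groups in the fit.

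B cell markers were higher than sham in 2 of 13 genes (29.2% of all genes), against 12 of 13 without the inhibitor (37.1% of all genes). In the direct test 12 were lower, against 11.9% of all genes. Ms4a1, which encodes CD20, measured 0.554, 0.588 and 0.482 CPM in sham and 0.930, 0.438, 0.418 and 0.520 in inhibitor hearts, and 1.28 to 4.61 in untreated infarcted hearts. The 2 called were Cd22 (1.68) and Blk (0.97); Blk lost its call without sham replicate 2 or 3 or inhibitor replicate 2 or 3 (adjusted p 0.0595 to 0.161), and Cd22 without sham replicate 1 (adjusted p = 0.077). Adipocyte markers were not higher than sham in any of 13 genes and lower in 4 (median -0.17), near the 26.5% of all genes lower. Without the inhibitor 7 were higher and 5 lower, with a median of 2.83. With total-count scaling 1 was higher and 1 lower in inhibitor against sham hearts. In the direct test 8 were lower with the inhibitor and 3 higher, against 11.9% and 17.9% of all genes. Adipoq, the adiponectin gene, measured 4.31, 7.45 and 10.3 CPM in sham, 4.31, 2.59, 17.6 and 8.03 in inhibitor hearts and 53.2 to 91.4 in untreated infarcted hearts. The 4 lower genes, Lpl, Fabp4, Pnpla2 and Lipe, are also expressed by muscle or vessel cells, and Lipe turned to 0.18 with total-count scaling. Whether the tissue pieces held different amounts of fat was not tested.

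**Figure D4:**
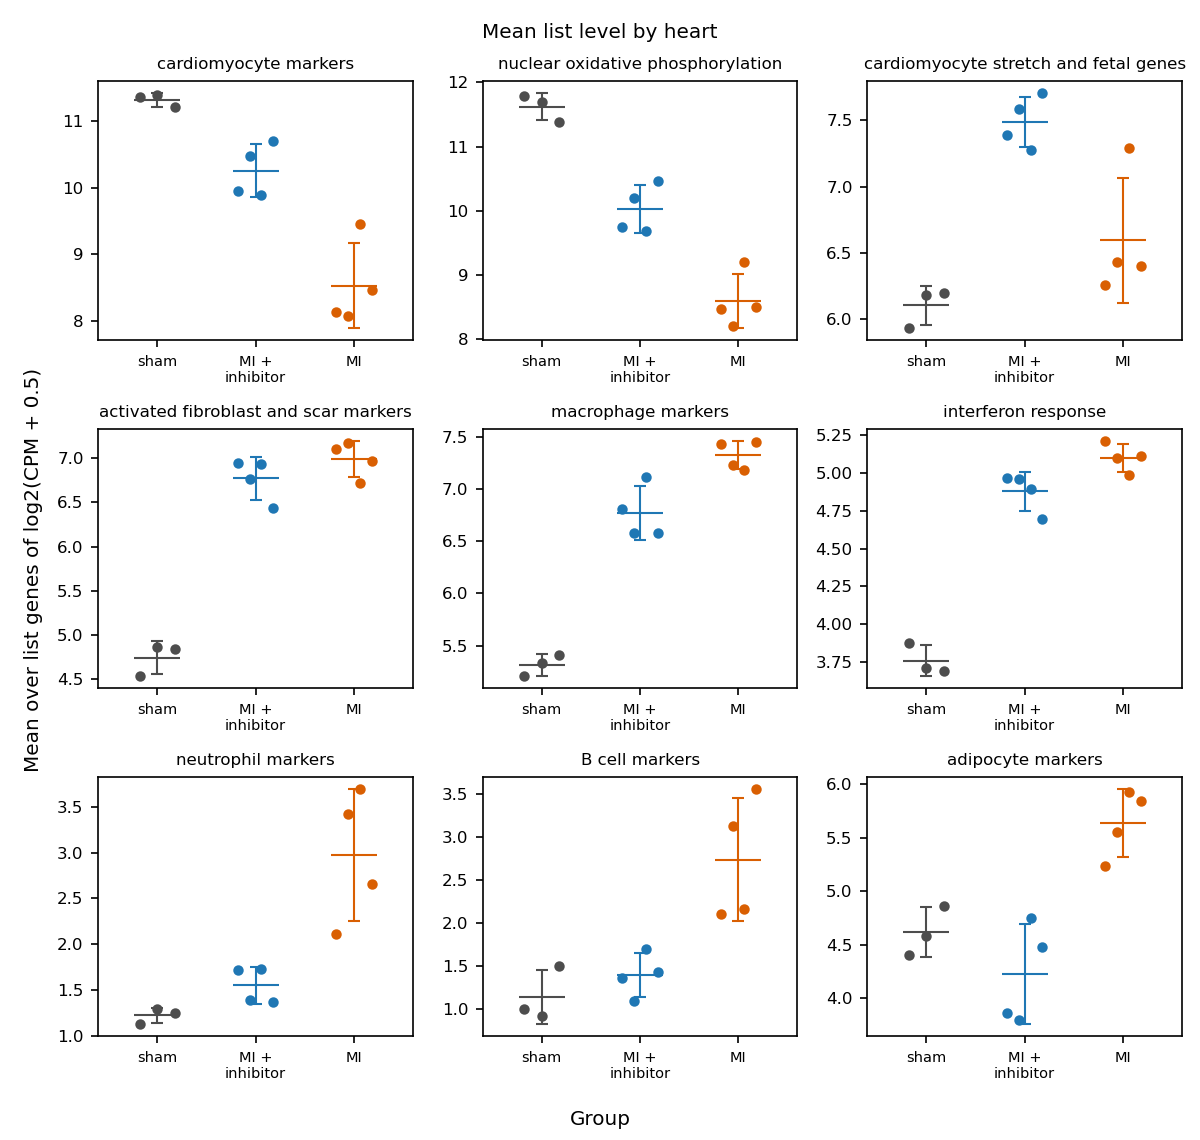
Each panel is a gene list; points are hearts at the mean over its genes of log2(CPM + 0.5), with group mean and SD bars for 3 sham, 4 inhibitor-treated infarcted and 4 untreated infarcted hearts. Cardiomyocyte and oxidative phosphorylation levels with the inhibitor lie between the other groups. Activated fibroblast and interferon levels lie nearer to untreated MI than to sham, with every inhibitor heart below untreated MI for interferon. Neutrophil, B cell and adipocyte levels lie nearer to sham than to untreated MI, with every inhibitor heart above sham for neutrophil markers. With 2 added to CPM in place of 0.5, the neutrophil levels of inhibitor (2.286 to 2.491) and sham hearts (2.173 to 2.306) overlapped.

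Individual genes showed the same 3 patterns, and as they were picked by these values, they are given as a description. Genes at the untreated infarcted level, within 0.2 of it on the log2 scale, included Postn, Col8a1 (90.7 CPM in sham, 591 with the inhibitor, 609 in untreated MI) and Itgbl1 (20.4, 133 and 142) among the raised. Among the lowered were Acot1, an acyl-CoA thioesterase gene (26.8, 2.92 and 2.57), Mrln, which encodes the calcium pump inhibitor myoregulin (13.8, 1.26 and 1.10), and Egflam (18.2, 1.99 and 1.96). Genes changed in untreated MI and within 0.2 of sham with the inhibitor included Hp, the haptoglobin gene (30.2, 32.3 and 333), Cfd, the adipsin gene (43.4, 43.0 and 492), and Cxcl13, the B cell chemokine gene (10.7, 10.9 and 130.4). On the lower side they included Tfrc, the transferrin receptor gene (15.7, 13.7 and 3.07), Nqo1, an antioxidant reductase gene (67.5, 62.6 and 21.2), and Myom1, a sarcomeric M-band gene (149, 132 and 47.8). Nearness to sham depended on single hearts: leaving out 1 heart gave log2 fold changes of -0.26 to 0.60 for Hp, -0.66 to 0.47 for Cfd, -0.42 to 1.02 for Cxcl13, -0.58 to 0.05 for Tfrc and -0.40 to -0.05 for Myom1, while Nqo1 stayed between -0.17 and 0.03. With total-count scaling these 6 genes had 0.44 to 0.76, and Nqo1 passed the test (0.55, adjusted p = 0.0116). Genes outside the range of both other groups were, besides Acta1, Bdh1, Xirp2 and Fhl1, Lman1l on the high side (1.24, 10.0 and 3.31). On the low side were Penk, the enkephalin precursor gene (12.3, 1.74 and 6.46), and Ppp1r1a, a protein phosphatase inhibitor gene (12.7, 3.77 and 6.22).

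Counts for endothelial, cell cycle and clock genes depended on the scaling, and are read against 29.2% of all genes higher and 26.5% lower. Of 21 endothelial genes 10 were lower and 1 higher, which became 1 lower and 13 higher with total-count scaling and 6 lower without sham replicate 1. The pan-endothelial gene Pecam1 measured 33.1, 31.2 and 30.3 CPM in sham and 32.9, 36.6, 31.1 and 34.1 in inhibitor hearts (0.10, SE 0.103, adjusted p = 0.449). Capillary genes were among the lower, with the water channel gene Aqp1 at -1.37 (SE 0.190) and Gpihbp1, which anchors lipoprotein lipase, at -0.92 (SE 0.201, or -0.27 with total-count scaling). In pericytes and smooth muscle 7 of 15 were higher and 6 lower: Abcc9 and Kcnj8, the 2 subunit genes of the vascular potassium channel, fell by 1.42 and 1.39, and Cnn1 and Pdgfrb rose by 2.39 and 0.83. Of 31 cell cycle genes 8 were higher, no larger a share than over all genes, and 1 lower, 5 higher without sham replicate 2, and 26 with total-count scaling; without the inhibitor 25 were higher, or 15 without sham replicate 2. Mki67, the proliferation marker gene, rose from 3.52 ± 0.558 CPM (SD, n = 3) to 6.87 ± 1.41 (SD, n = 4). Of 19 clock genes 9 were lower and 3 higher, and 4 lower and 9 higher with total-count scaling. The clock output genes Dbp and Hlf fell by 1.29 (SE 0.245) and 1.83 (SE 0.173) while Arntl, the core activator gene, rose by 1.30 (SE 0.288); the sources used here do not give the hour of collection.

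Stress and blood genes also separated the groups. Of 24 genes of the integrated stress response 15 were higher and 4 lower, with Phgdh and Asns, amino acid synthesis genes, up by 2.07 and 1.26 and Atf4 by 0.51; with total-count scaling 20 were higher and none lower. Among 23 immediate early genes, which respond within minutes and also to handling of tissue, 9 were higher and 6 lower, against 14 and 2 with total-count scaling and 29.2% and 26.5% of all genes, with Fos at -0.13 and Egr1 at 0.37 not passing and Nr4a1 and Dusp1 down by 2.37 and 1.43. All 6 erythroid genes were lower (median -1.81), and 4 were lower with total-count scaling. Hba-a1, an alpha-globin gene, measured 5401, 1620.4 and 3329 CPM in sham and 1066, 1363, 786 and 841 in inhibitor hearts. The summed erythroid level was 5194 to 17090 CPM in sham and 2189 to 4238 in inhibitor hearts, with no overlap. The part of red cell RNA in the other results was not tested.

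The 10 largest decreases among genes at 10 CPM or more were led by a mitochondrial-like transcript, Gm28438, a pseudogene copy of mt-Nd3 on chromosome 1 (24612775 to 24613119, minus strand, GRCm38, GENCODE M21). It measured 1027, 1126 and 1526 CPM in sham and 18, 10.6, 11.8 and 10.5 in inhibitor hearts (log2 change -6.59, SE 0.241, adjusted p = 3.76e-11), with 14.7 to 19.5 in untreated infarcted and a mean of 19.3 in Fap-knockout infarcted hearts. Over the same hearts mt-Nd3 itself measured 20.3, 29.9 and 44.2 CPM in sham and 181, 254, 337 and 246 in inhibitor hearts (3.02, SE 0.358, adjusted p = 4.28e-06). The 2 annotated sequences differ over 345 aligned bases at 1 position, T3C, counted from the first base of mt-Nd3 and written from mt-Nd3 to the copy. Their first 60 bases, with that position in capitals, are shown because reads of one can be assigned to the other.
mt-Nd3 (chrM:9459-9518, plus strand): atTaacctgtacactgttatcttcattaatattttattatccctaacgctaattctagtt
Gm28438 (chr1:24613060-24613119, minus strand): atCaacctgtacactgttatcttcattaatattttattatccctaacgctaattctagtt
Of the summed reads of both genes, 97.2 to 98.1% fell on the copy in sham, 3.38 to 9.06% in inhibitor, 14.4 to 28.7% in untreated infarcted and 4.97 to 8.29% in Fap-knockout infarcted hearts. Their sum was 1047 to 1570 CPM in sham, 198.9 to 348.9 in inhibitor and 51.37 to 119.3 in untreated infarcted hearts, lower in inhibitor than in sham hearts like the other 8 mitochondrial genes. Gm10222, which shares all 264 of its 31-base stretches with mt-Nd4l, fell from 21.3 ± 3.10 CPM (SD, n = 3) to 0.754 ± 0.166 (SD, n = 4). Whether the sham and infarcted mice differed in mitochondrial genotype or substrain was not tested, and such a difference could not be told apart from surgery and treatment in this comparison.

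**Figure D5:**
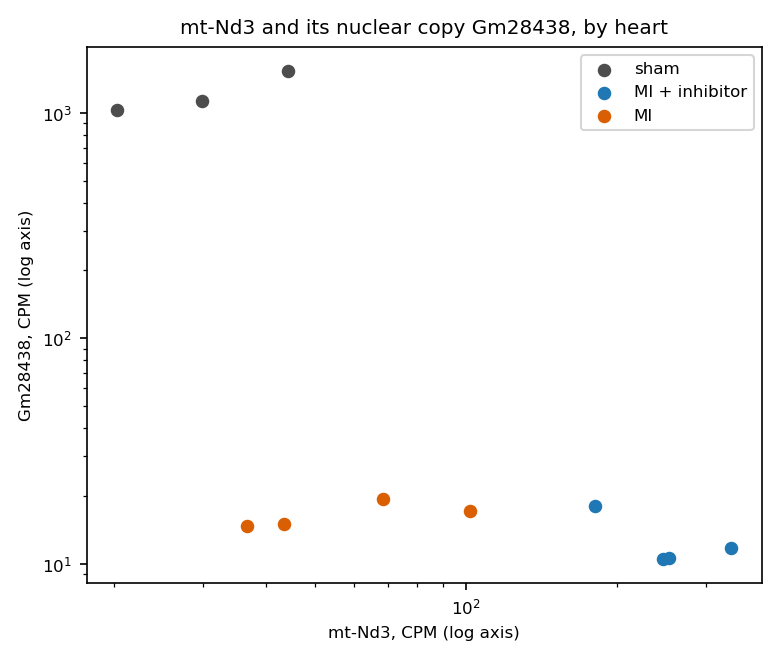
Each point is a heart, with mt-Nd3 on the x axis and Gm28438 on the y axis, both in CPM on log axes. The 3 sham hearts lie at 1027 to 1526 CPM of Gm28438 and the 8 infarcted hearts at 10.5 to 19.5.

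The other large decreases included transport and metabolic genes. Ces1d, a carboxylesterase gene, measured 113, 114 and 89.5 CPM in sham, 7.65, 9.09, 3.53 and 4.33 in inhibitor hearts and 6.34 to 7.90 in untreated infarcted hearts, so both infarcted groups lay together (log2 change -4.11, SE 0.272, adjusted p = 1.84e-08). Inmt, a methyltransferase gene, fell by 4.78 (SE 0.401), Cngb3, a cyclic nucleotide-gated channel gene, by 4.68 (SE 0.253) and Aqp4, a water channel gene, by 4.47 (SE 0.282). Ano10, an anoctamin gene, fell from 261 ± 45.3 CPM (SD, n = 3) to 18.3 ± 3.43 (SD, n = 4). Gm24474 and Gm40604 were also among them. The largest increases, besides Spp1, Mmp12, Nmrk2, Sfrp2, mt-Nd3 and Lman1l, were Star, a steroidogenic cholesterol transport gene (3.24 ± 1.34 CPM in sham, n = 3, and 29.0 ± 1.42 with the inhibitor, n = 4, SD), Serpinb1c (3.28, SE 0.383) and Wfdc18 (3.03, SE 0.363). Atp6v0d2, a proton pump subunit gene, measured 0.678, 0.849 and 1.31 CPM in sham and 2.58, 2.52, 32.6 and 10.1 in inhibitor hearts, again highest in replicate 3, and its adjusted p was 0.00365, or 0.0971 with limma-voom.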

How the data were processed

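Total RNA of border zone heart tissue was sequenced by Smart-seq2, modified to carry UMI barcodes, per the labels' protocols. The values are raw counts per gene deposited by the authors, made with STAR and HTSeq on mm10, per the submitters' processing notes, which give no versions. No row lacked a gene, and gene names came from GENCODE M21 for 53620 of 53801 identifiers. The 6 culture libraries and 6 columns of a series-wide table that match no sample here were not used.

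All 15 heart libraries entered 1 edgeR (4.0.16, R 4.3.3) quasi-likelihood fit with TMM scaling and edgeR's filter on low counts, which left 17064 genes. Calls use a Benjamini-Hochberg adjusted p of 0.05 over all genes, and standard errors are the log2 fold change divided by the root of F. Every adjusted p in the text comes from this fit unless another tool is named. Alternatives used DESeq2 1.42.0, limma-voom 3.58.1, other scalings and filters, a replicate block, only the 2 groups, and each heart left out. No 2 libraries agreed within sampling noise. Tested on simulated data of 16402 genes, 200 of them with known changes, the fit recovered 25.4% of 1.5-fold, 74.6% of 2-fold and 98.5% of 4-fold changes, with 3 false calls. Far fewer genes changed there than the 9517 called in the data, and their directions were drawn at random. These rates therefore do not cover errors from a shift in composition and need not hold for the calls above.

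The comparison, the 47 gene lists and the named-gene rule were chosen with earlier results of these data known. The rule named the natriuretic genes, the 10 largest changes each way among genes of at least 10 CPM whose groups do not overlap, 4 members of each list with the smallest p (and 2 in the lesser direction), 6 genes each way for each of 3 patterns across the groups, and fixed anchor genes. Other members named in the text were chosen after their values were seen, and some genes are not reported here. Promoters are 250 bases before the RefSeq start (GRCm38.p6), and motif shares use 50 bases more. Figures used matplotlib 3.10.9 with Python 3.11.15.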

Additional observations from a re-analysis of the deposited data

Results flagged for a closer look

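In 14 of 327 gene or list levels scanned, 1 of the 4 inhibitor hearts lay far from the other 3 for the size of their spread, and chance alone gives about 1 in 20 such gaps. Inhibitor replicate 3 was highest for Gpnmb (160.4 CPM against 30.53 to 50.21), for the level of the lipid-associated macrophage list (8.782 against 8.22 to 8.273 on the log2 scale) and for the B cell gene Cd22 (1.315 CPM against 0.6641 to 0.6939). The same heart was lowest for Suclg2, a tricarboxylic acid cycle gene (26.31 CPM against 37.53 to 39.23), for the antioxidant gene Gpx3 (2955 CPM against 3938 to 4047) and for Nqo1 (43.32 CPM against 68.33 to 70.13).

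Inhibitor replicate 4 was lowest for Acta2 (201.6 CPM against 447.2 to 466.4), Cpt1a (10.6 CPM against 13.66 to 14.06) and Tyms, a DNA synthesis gene (22.17 CPM against 27.89 to 28.84). It was highest for the level of the renin-angiotensin list (2.978 against 2.767 to 2.784 on the log2 scale). Inhibitor replicate 1 was highest for Gm28438 (18.02 CPM against 10.51 to 11.78), Gm10222 (0.9993 CPM against 0.6352 to 0.6939), Ccl24 (2.378 CPM against 0.8373 to 1.076) and the immediate early gene Junb (102.0 CPM against 86.96 to 89.51).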

How the results depend on the processing

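Total-count scaling and a minimum size moved the counts most among the settings run. With total-count scaling, inhibitor against sham gave 10769 genes higher and 1632 lower, MI against sham 12663 and 2037, and inhibitor against MI 1448 and 8485 (9933 called). There, 5 of the 254 named genes that passed the test turned from lower to higher: Tgfbr3 to 0.20, Lipe to 0.18, Shmt2 to 0.18, Canx to 0.17 and Egln1 to 0.034 (adjusted p 0.133 to 0.813). A further 17 of the 254 kept their direction but no longer passed. Of the 30 named genes that had not passed, 14 changed sign, and 6 of these passed there. Another 9 of the 30 passed there without a change of sign. With RLE size factors 4587 genes were higher and 4892 lower, 48.4% higher against 52.4%. A size of at least 1 on the log2 scale left 2490 higher and 1850 lower (4340 called) for inhibitor against sham, 3787 and 3108 (6895) for MI against sham, and 1110 and 338 (1448) for inhibitor against MI. Leaving out 1 heart at a time gave 8067 to 9539 called genes for inhibitor against sham. For inhibitor against MI it gave 3359 (without inhibitor replicate 4) to 5495 called genes and 1095 (the same heart) to 2196 lower, with 1342 without inhibitor replicate 2. DESeq2 called 9203 genes and limma-voom 9068.

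Same-numbered sham and inhibitor hearts had deviations correlated at 0.0025, 0.0252 and 0.1916, against -0.1758 to 0.1323 for other numbers. For MI and sham hearts these were 0.193, 0.1032 and 0.0779, against -0.1994 to 0.1624. For inhibitor and MI hearts they were 0.0719, 0.0803, -0.212 and 0.1351, against -0.3792 to 0.4513. These values do not settle whether the replicate numbers pair the hearts. A replicate block called 9395 genes, 4950 higher and 4445 lower. Cpt1b, mt-Co2 and mt-Co3 had at most 5 counts in any sham, inhibitor or untreated MI heart and were not tested, and Tagln and Acadvl had low counts. Gm28661 and Gm28437 share 100% of their 31-base stretches with mt-Co2 and mt-Co3; how the counting treated overlapping or near-identical genes was not tested.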

Other observations

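Counts here are read against 29.2% of all genes higher and 26.5% lower. Complement genes were higher in 13 of 19, among them the classical pathway genes C1qa (1.18), C1s1 (1.24) and C4b (1.80) and the regulator gene Cfi (2.80), while Cd59a, which encodes a membrane inhibitor of lysis, fell by 1.06. Of 25 antioxidant genes 9 were higher and 13 lower, which became 13 and 7 with total-count scaling. Sod2, Prdx3 and Txn2, which encode mitochondrial enzymes, fell by 1.67, 1.38 and 1.17, and Sod3, Gpx3, Gpx7 and Gpx8 rose by 1.24, 1.93, 0.98 and 1.06.

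Of 18 angiogenesis genes 8 were higher and 5 lower (13 and 3 with total-count scaling), with Vegfd, a lymphatic growth factor gene, up by 1.71 and Vegfb, a growth factor gene of oxidative muscle, down by 1.39. Of 10 renin-angiotensin genes 4 were higher and 4 lower: Ace, the converting enzyme gene, rose by 1.47, and Agtr1a, the angiotensin receptor gene, and Cma1, the mast cell chymase gene, fell by 2.06 and 2.51. Of 18 hypoxia genes 5 were higher and 3 lower, no larger a share either way than over all genes, and 14 and 1 with total-count scaling, with Car9, a carbonic anhydrase gene, up by 2.08. In the nerve and Schwann cell list 5 of 13 were higher and 4 lower, with the lower count at 2 without sham replicate 2 or 3 or inhibitor replicate 2 or 3, and the higher count at 3 without sham replicate 3. Ncam1, an adhesion molecule gene, rose by 1.80 and Gfra3, a neurotrophic receptor gene, fell by 2.69. Epicardial genes were higher in 4 of 14, near the share over all genes, with Krt18 up by 2.19. The mean epicardial level, as log2(CPM + 0.5), was 4.11 in inhibitor replicate 1 against 1.91 to 2.63 in the other inhibitor hearts and 2.02 to 2.41 in sham. In the atrial list 3 of 9 were higher and 2 lower.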
